A study of Mus musculus with 12 samples.

Results

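The 5′ fragments of tRNA-Gly-GCC and tRNA-Gly-CCC were examined in mouse liver by sequencing of tRNA-derived small RNAs (tsRNAs). A sequence was taken when every mature tRNA it was listed under was Gly-GCC or Gly-CCC and when it started at the first or second base of the tRNA, whatever its subtype. This gave 2724 of 87699 distinct sequences, with 713709 of 1705883 reads (41.84%). Of these 2724 fragments, 2561 started at the first base and 163 at the second, 923 had a single read in all libraries together, and 219 had at least 100 reads.

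The livers came from male B6D2F1/Crl mice of 2 genotypes, wild type (WT) and NS-KO, in which CRISPR had removed part of an NSun2 exon. The labels give an age of 8 to 12 weeks for all samples, and the methods 9 to 12 weeks at injection. The age of the D27 mice when examined is not given apart. D0 mice had received corn oil, the vehicle. D3 mice were examined on day 3 after a single injection of CCl4, a solvent that hepatocytes convert into a toxic product, and D27 mice on day 27 of repeated injections, each of 2 ml per kg of body mass of CCl4 diluted to 40% with corn oil. Each of the 6 groups had 2 libraries, described in the methods as independent biological replicates, which makes 12 libraries and 6 per genotype. The deletion is present in every cell of the NS-KO mouse, so the livers do not show which cell type a difference comes from. The libraries held tRNA reads, so neither the loss of NSun2 nor the liver label could be checked against a marker gene.

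Glycine tRNAs with the anticodons GCC and CCC carry glycine to the ribosome, and cleavage in or near their anticodon loop leaves a 5′ fragment that is among the most abundant tsRNAs of many mammalian tissues and fluids. NSUN2 places 5-methylcytosine in the variable loop of many tRNAs, while DNMT2 methylates a cytosine of the anticodon loop in Gly-GCC, Asp-GTC and Val-AAC, and such methylation is known to protect tRNAs from nucleases such as angiogenin. The authors' subtypes follow fragment length. tRF-5a, tRF-5b and tRF-5c are 5′ fragments of increasing length that end before the anticodon. tiRNA-5 are cut in the anticodon, and those listed here were all of 33 nt.

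The 11 tRNA copies behind these fragments differ at a few bases, which decides what a read can tell. The first 36 bases of 6 copies follow as the deposited alignment gives them, with capitals at the positions that differ from Gly-GCC-2-1. In all 11 copies the anticodon lies at positions 33 to 35 and its loop at positions 31 to 37, counted from 1 at the 5′ end.
Gly-GCC-2-1: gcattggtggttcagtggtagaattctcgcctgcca
Gly-GCC-1-1: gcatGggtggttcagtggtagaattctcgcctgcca
Gly-CCC-2-1: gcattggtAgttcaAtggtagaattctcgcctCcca
Gly-CCC-3-1: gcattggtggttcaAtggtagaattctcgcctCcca
Gly-GCC-5-1: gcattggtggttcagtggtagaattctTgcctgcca
Gly-CCC-1-1: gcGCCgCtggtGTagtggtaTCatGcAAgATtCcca

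Gly-GCC-2-1 had the same 36 letters as Gly-GCC-3-1 and Gly-GCC-4-1, and Gly-CCC-5-1 shared its first 32 bases. A fragment of up to 32 nt from these copies was therefore listed under both isodecoders, and 86.08% of the reads were. Copies that differ within the fragment could be followed apart. GCC-1 is marked by T5G and CCC-2 by G9A and G15A, written as the base of Gly-GCC-2-1, the position from the 5′ end and the base of the copy. GCC-6 also carries T5G and first parts from GCC-1 at G29A. Of the 584 fragments listed under GCC-1, 383 were listed under it alone. The deposited table gives positions without a strand or a named build, and they match tRNA genes of RefSeq on GRCm38.p6 for 9 of the 11. Gly-GCC-1-1 lies at chr1:171066631-171066701, Gly-GCC-2-1 at chr1:171044985-171045055 and Gly-CCC-2-1 at chr3:96351167-96351237.

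A few fragments held most of the reads: the 10 most abundant made up 77.5% of them. The leading fragments of each length and copy are shown next, with capitals at bases that differ from Gly-GCC-2-1, so that the ends can be compared.
rank 1 fragment, 31 nt, 165558 reads: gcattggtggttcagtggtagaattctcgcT
rank 2 fragment, 31 nt, 142800 reads: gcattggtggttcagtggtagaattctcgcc
rank 3 fragment, 31 nt, 63546 reads: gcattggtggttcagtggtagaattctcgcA
rank 4 fragment, 32 nt, 44891 reads: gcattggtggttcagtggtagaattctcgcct
rank 5 fragment, 30 nt, 43487 reads: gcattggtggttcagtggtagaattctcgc
rank 7 fragment, 31 nt, 15937 reads: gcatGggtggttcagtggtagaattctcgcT
rank 25 fragment, 31 nt, 2131 reads: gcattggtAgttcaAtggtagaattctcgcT

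The library totals ranged from 46937 to 275568 reads, and the fragments had 4214 reads in the shallowest library and 164757 in the deepest. The smallest NS-KO libraries were at D0 and D27, so values of rare fragments there rest on few reads. A count of 0 allows up to 3 reads of a library's total. This limit and the intervals given hold for counting error alone, as reads of 1 molecule could not be recognised. WT D3 replicate 1 stood apart from the other WT libraries, with 60.12% of its reads outside the glycine, glutamate and valine 5′ fragments compared here, against 20.19% to 35.44% in the others.

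The Gly-GCC and Gly-CCC 5′ fragments took a smaller share of the tRNA reads in NS-KO livers at each day. Among WT libraries the share was 61.86% and 54.54% at D0, then 30.68% and 53.98% at D3 and finally 46.03% and 58.38% at D27. Among NS-KO libraries it was 10.29% and 8.98% at D0, then 25.59% and 12.64% at D3 and finally 15.04% and 12.54% at D27. No NS-KO library reached the lowest WT library, which was WT D3 replicate 1, and Wilson 95% intervals of the single libraries were at most 0.323 percentage points to either side. Averaged over days the difference of NS-KO minus WT was −36.73 percentage points (exact two-sided permutation of genotype within days, p = 0.009259, the smallest that this design allows, and 0.02381 after Benjamini-Hochberg adjustment over 18 measures). Without WT D3 replicate 1 the difference was −40.62 points. These are shares of a library: they fall when other tRNA reads rise, and in whole liver fewer cells of a type and less RNA per cell cannot be told apart.

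**Figure D1:**
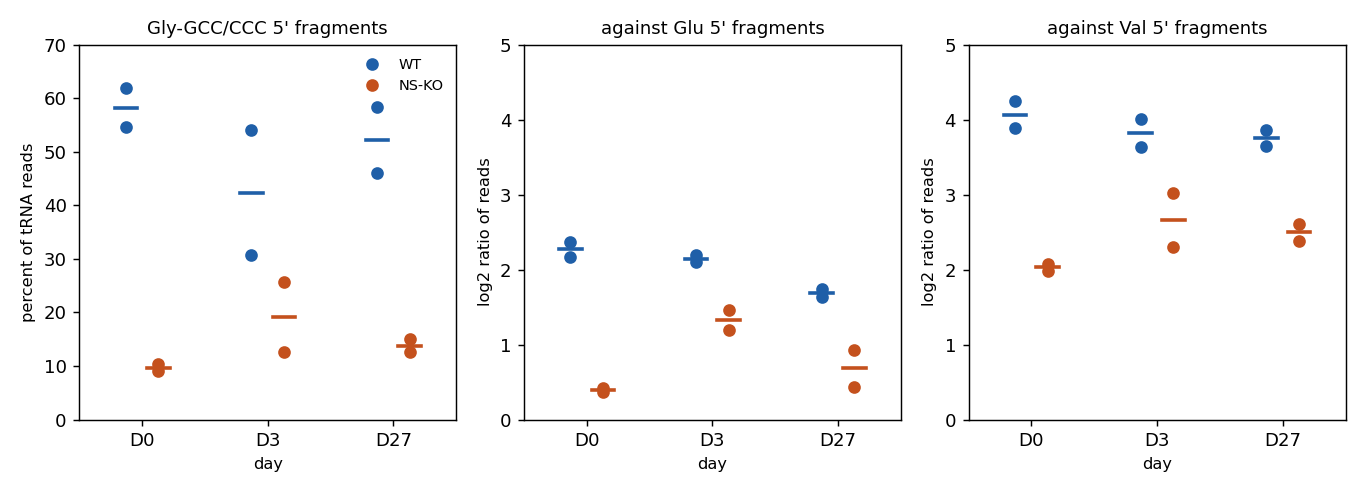
Left, reads of Gly-GCC and Gly-CCC 5′ fragments as a percent of tRNA reads by day. Middle and right, log2 ratio of these reads to the 5′ fragments of glutamate and of valine tRNAs. Points are libraries (2 per group) and short lines group means. In all 3 panels every NS-KO library lies below every WT library.

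The fall was also seen against other 5′ fragments of the same libraries, which share their depth and preparation. Glu-CTC and Glu-TTC 5′ fragments (197836 reads) and Val-AAC and Val-CAC 5′ fragments (55579 reads) were chosen by the same start rule. The log2 ratio of glycine to glutamate 5′ fragments was 1.63 to 2.37 in WT libraries, with a median of 2.14, and 0.37 to 1.47 in NS-KO libraries, with a median of 0.68. It was 1.23 lower in NS-KO averaged over days (exact permutation p = 0.009259, adjusted p = 0.02381). The ratio to valine 5′ fragments was 3.64 to 4.24 in WT and 1.99 to 3.02 in NS-KO, and 1.49 lower averaged over days (the same exact permutation and adjusted p). Neither pair of ranges overlapped.

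Against the 3′ fragments of the same tRNAs the log2 ratio ran from 8.05 to 11.15 in WT and from 6.38 to 9.17 in NS-KO, with an overlap. The difference over days of −2.14 had an exact permutation p of 0.02778, which did not pass after adjustment (0.05556), and these 3′ fragments had only 839 reads in all. The ratio to 5′ fragments of Gly-TCC, the other glycine isoacceptor, differed by −0.24 (exact permutation p = 0.713), with 492 Gly-TCC reads in the 12 libraries. The ratio ran from 8.64 to 11.48 in WT and from 8.79 to 11.46 in NS-KO. A difference from Gly-TCC was not detected, and whether depth limited this was not tested. Gly-TCC 5′ fragments themselves took a median of 0.0367% of the reads in WT (0.0214% to 0.0761%) and 0.0132% in NS-KO (0.0043% to 0.0226%).

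Glu-CTC 5′ fragments alone took 4.55% to 15.01% of the reads in WT and 4.64% to 9.44% in NS-KO, with medians of 10.65% and 5.97%. Glu-TTC 5′ fragments had medians of 2.015% in WT and 1.201% in NS-KO. Higher medians in NS-KO were found for Lys-CTT (0.992% in WT and 1.84% in NS-KO) and Lys-TTT (0.0921% and 0.2085%). The same held for His-GTG (0.352% and 0.589%) and for Val-CAC alone (0.194% and 0.286%). Asp-GTC, a DNMT2 target like Gly-GCC, had medians of 0.0480% and 0.0455%. Val-AAC, another, had 0.169% and 0.189%, but over sequences listed under it alone, with 3816 of the 55579 valine reads. Most of the rest, 47114 reads, were listed under both Val-AAC and Val-CAC. As CPM, here scaled to the reads outside the glycine fragments, these had 31420 to 81280 in WT and 17860 to 29520 in NS-KO. As a share of all reads, valine 5′ fragments together took 2.467% to 4.014% in WT and 2.05% to 3.167% in NS-KO. Each of these lists had a lower share than the glycine fragments in every WT library and in every NS-KO library.

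As a description of likeness, levels were expressed relative to the reads outside the glycine fragments and correlated on a log2 scale over the 12 libraries, which share this denominator. Among sets of isodecoders with at least 500 reads of 5′ fragments, the 5 most alike were Val-AAC/Val-CAC (Pearson r = 0.966), Glu-CTC (0.915), Glu-CTC/Glu-TTC (0.901), Glu-TTC (0.865) and Asp-GTC (0.706).

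Single fragments were compared in a fit over all tRNA fragments, of which 22065 reached 20 CPM, the reads of a fragment scaled to the library total, in at least 1 library. Of the 2724 glycine fragments, 893 passed this filter, with 99.3% of their reads, and 1831 were too rare. Over days, 248 of the 893 were lower in NS-KO and 0 were higher at an adjusted p under 0.05 (limma), against a background of 2.23% of all fragments called lower. Fragments listed under Gly-GCC-2-1, Gly-GCC-3-1 and Gly-GCC-4-1 together (GCC-2/3/4) gave 218 of these from 517 tested, and GCC-1 gave 14 from 148. The calls thus lay mainly in GCC-2/3/4, whose sequences include variants of each other by 1 base. The fragments called lower held 90.4% of the glycine reads, with log2 fold changes from −0.67 to −3.45 and a median of −2.02. Over all 893 the median was −0.63, beside 0.13 over all fragments tested. At an unadjusted p under 0.05, 19 were higher. Other settings called some higher: 37 against 298 lower with any read in 2 libraries, 25 against 375 with voom weights, 5 against 164 with library size only and 4 against 203 with the stricter filter. Without WT D0 replicate 1 the count was 142. Among the 133 tested sequences that match their tRNA at every base, fitted alone, 19 were lower.

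The rank 2 fragment, the 31-nt sequence that matches its tRNA exactly, had 166200 and 138200 CPM in WT at D0, then 67910 and 102900 at D3 and finally 75990 and 98290 at D27. In NS-KO it had 21290 and 14250 CPM at D0, then 25050 and 14740 at D3 and finally 25140 and 17560 at D27. All 6 NS-KO libraries lay below all 6 WT libraries. Its log2 fold change over days was −3.31 (SE 0.304, adjusted p = 0.00226, limma).

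The fragments that differ from it in the last base moved closely with it. Rank 1, ending in T, changed by −3.32 (SE 0.310) and rank 3, ending in A, by −3.35 (SE 0.314), both with an adjusted p of 0.00226. The 30-nt fragment of rank 5 changed by −3.23 (SE 0.351, adjusted p = 0.00378). The 32-nt fragment of rank 4, which ends just before the anticodon, changed by −2.0 (SE 0.503, adjusted p = 0.041), and its levels overlapped: 9847 to 57780 CPM in WT and 6888 to 22930 CPM in NS-KO. The 33-nt fragment of rank 19, a tiRNA-5 that ends on the first anticodon base of Gly-GCC, changed by −1.73 (SE 0.411, adjusted p = 0.0331). The calls of ranks 4 and 19 were lost on leaving out any of 10 and any of 9 of the 12 libraries (adjusted p up to 0.21 and 0.115), whereas those of ranks 1, 2, 3 and 5 were kept in all 12. The short tRF-5a and tRF-5b with the most reads had only 34 and 31 reads and were not called (−1.01, adjusted p = 0.0673, and 0.03, adjusted p = 0.951).

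At single days the fit, with 2 libraries on each side, called 69 glycine fragments lower at D0 and 0 higher (background 0.363% lower). At D27 it called 44 lower and 0 higher (background 0.276%). At D3 the picture was mixed, with 11 lower (background 0.553%) and 48 higher (background 10.3%). All 11 that were lower at D3 came from the GCC-2/3/4 copies, and 45 of the 48 that were higher came from CCC-2. The balance at D3 moved with the scaling, to 38 higher and 24 lower with library size only and to 28 higher and 52 lower with scaling to the reads outside the glycine fragments. The counts at D0 and D27 were 0 to 127 and 0 to 120 when single libraries were left out, and D0 had 0 with a prior count of 0.5.

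Sums by subtype separated fragments listed under one isodecoder from those listed under both. tRF-5c of 28 to 32 nt held 95.51% of the reads, tiRNA-5 of 33 nt 1.17%, tRF-5a 0.02% and tRF-5b 0.016%, and 3.29% were listed as Other. Other took in the lengths of 34 nt (4551 reads) and 35 nt (8727 reads), which from the first base also end within the anticodon. Of the 15 sums, 11 entered a fit over 367 sums of all tRNAs, and 7 were lower over days and 0 higher (background 15.5% lower), or 6 lower and 2 higher with library size only. The median over the 11 was −1.65, beside 0.14 over all sums.

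The tRF-5c sum listed under both isodecoders (605958 reads) was 582100 and 508000 CPM in WT at D0, then 271000 and 472400 at D3 and finally 383700 and 496400 at D27. In NS-KO it was 84410 and 70180 CPM at D0, then 131200 and 68420 at D3 and finally 123900 and 98970 at D27. It changed by −3.13 over days on the log2 scale (SE 0.415, adjusted p = 0.000343), with no overlap between genotypes. The tRF-5c sum of Gly-GCC alone (64635 reads) changed by −1.87 (SE 0.354, adjusted p = 0.00221), and the tiRNA-5 sum of Gly-GCC alone (4698 reads) by −1.65 (SE 0.380, adjusted p = 0.00621).

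For Gly-CCC alone the tRF-5c sum (11037 reads) was not called over days (−0.95, adjusted p = 0.0657), but passed without WT D3 replicate 1 (adjusted p = 0.0056), WT D27 replicate 1 (0.049) or NS-KO D27 replicate 1 (0.0352). Its levels at D3 were 1521 and 3010 CPM in WT and 26640 and 15180 CPM in NS-KO. Both NS-KO D3 libraries were above all other libraries, the highest of which had 3946 CPM. The 33-nt tiRNA-5 sum of Gly-CCC (1985 reads) had 184.0 and 527.5 CPM in WT at D3 and 5211 and 2333 CPM in NS-KO at D3. It was 3.43 higher in NS-KO at D3 (SE 0.786, adjusted p = 0.00784), a call that was lost without NS-KO D3 replicate 1 (adjusted p = 0.0612). Over days it was not called (−0.02, adjusted p = 0.977).

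By day, 6 of the 11 sums were lower and 0 higher at D0 (background 5.72%) and 4 lower and 0 higher at D27 (background 7.63%). At D3, 1 was lower (background 10.1%) and 3 were higher (background 16.6%), the latter all of Gly-CCC alone. Library size only gave 3 lower and 3 higher there, and scaling to the reads outside the glycine fragments 5 lower and 3 higher. Within NS-KO, 4 sums were higher at D3 than at D0 (background 12.5%) and 3 had a positive interaction of genotype and D3 (background 8.99%, or 4 positive and 1 negative with library size only), meaning that the change from D0 to D3 was greater in NS-KO than in WT.

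Reads were next summed by the tRNA copies they match, a grouping chosen after the sequences and their levels had been seen. GCC-2/3/4 held 628047 reads (88.0%), GCC-1 59111 (8.28%), CCC-2 16900 (2.37%), GCC-5 3712, CCC-1 1677, CCC-3/CCC-4 845, GCC-6 456 and CCC-5 145, and 2816 reads matched other combinations. All 9 sums entered a fit over 478 such sums, and 7 were lower in NS-KO over days (background 14.6%) and 0 higher, or 4 lower and 1 higher with library size only.

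The GCC-2/3/4 sum had 589800 and 517800 CPM in WT at D0, then 283800 and 498900 at D3 and finally 398400 and 514800 at D27. NS-KO had 91040 and 80040 CPM at D0, then 143500 and 71800 at D3 and finally 129700 and 109100 at D27. The 6 NS-KO libraries all lay below the 6 WT libraries. The log2 fold change over days was −3.14 (SE 0.386, adjusted p = 0.000141), −4.15 at D0 (adjusted p = 0.00367), −1.83 at D3 (adjusted p = 0.0753, not called) and −3.44 at D27 (adjusted p = 0.00942). Scaling to library size alone gave −2.17 over days, where the median over all sums by copy moved from 0.08 to 0.90.

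GCC-1, which differs by 1 base, was lower in NS-KO over days and higher in NS-KO at D3 than at D0. It had 24540 and 22850 CPM in WT at D0, then 19490 and 30030 at D3 and finally 47660 and 55650 at D27. In NS-KO it had 8035 and 6306 CPM at D0, then 56590 and 30540 at D3 and finally 15350 and 11880 at D27. NS-KO was below WT at D0 and D27, whereas at D3 both NS-KO libraries were above both WT libraries, by a margin that was not called (0.84, adjusted p = 0.324). Over days the sum changed by −1.93 (SE 0.320, adjusted p = 0.000581), from D0 to D3 in NS-KO by 3.10 (SE 0.554, adjusted p = 0.00148), and the interaction of genotype and D3 was 4.03 (SE 0.784, adjusted p = 0.00689).

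CCC-2 had the steepest change of the copies, and it was at D3 in NS-KO. Its level was 938.7 and 990.8 CPM in WT at D0, then 1129 and 2989 at D3 and finally 3672 and 4300 at D27. In NS-KO it was 1412 and 1087 CPM at D0, then 49850 and 21410 at D3 and finally 1831 and 1026 at D27. The 2 NS-KO D3 libraries held 81.44% of all CCC-2 reads, and there CCC-2 made up 19.48% and 16.94% of the glycine fragments, against 0.152% to 1.37% in the other 10 libraries.

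CCC-2 was higher in NS-KO than in WT at D3 by 4.20 on the log2 scale (SE 0.676, adjusted p = 0.000512) and higher at D3 than at D0 in NS-KO by 5.25 (SE 0.676, adjusted p = 0.000131). The interaction of genotype and D3 was 5.28 (SE 0.956, adjusted p = 0.00465). At D0 it was not called (−1.08, adjusted p = 0.361), and this sign is the reverse of the CPM given above, which were higher in NS-KO. The fit divides by TMM scaling factors, which were 0.4666 and 0.6453 in WT at D0 and 1.503 and 1.506 in NS-KO at D0. CCC-2 was higher in NS-KO at D3, as given, but lower in NS-KO at D27 by −3.02 (adjusted p = 0.0153). These opposite directions left a change of 0.03 over days (adjusted p = 0.958), which was 0.99 and called with library size as the only scaling (adjusted p = 0.00417). Leaving out any single library kept the calls at D3, in NS-KO from D0 to D3 and for the interaction, whereas the D27 call was lost without WT D27 replicate 2 (adjusted p = 0.173) or NS-KO D27 replicate 2 (0.134).

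Fragments of CCC-2 that start elsewhere in the tRNA, which the choice of 5′ fragments did not use, had 127 and 26 reads in the NS-KO D3 libraries and 0 or 1 read in each of the other 10. Reads of Gly-GCC and Gly-CCC precursors numbered 295 and 183 in the NS-KO D3 libraries and 21 to 61 in the others. Both were thus also highest in these libraries, which had 221446 and 127326 reads in all.

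The log2 ratio of CCC-2 to GCC-2/3/4 was −9.29 to −6.76 in WT and −6.72 to −1.53 in NS-KO, with no overlap and NS-KO above WT at each of the 3 days. It was 3.17 higher in NS-KO averaged over days (exact permutation p = 0.009259, adjusted p = 0.02381). For GCC-1 the ratio was 1.21 higher (exact permutation p = 0.03704, adjusted p = 0.06061), which did not pass adjustment.

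**Figure D2:**
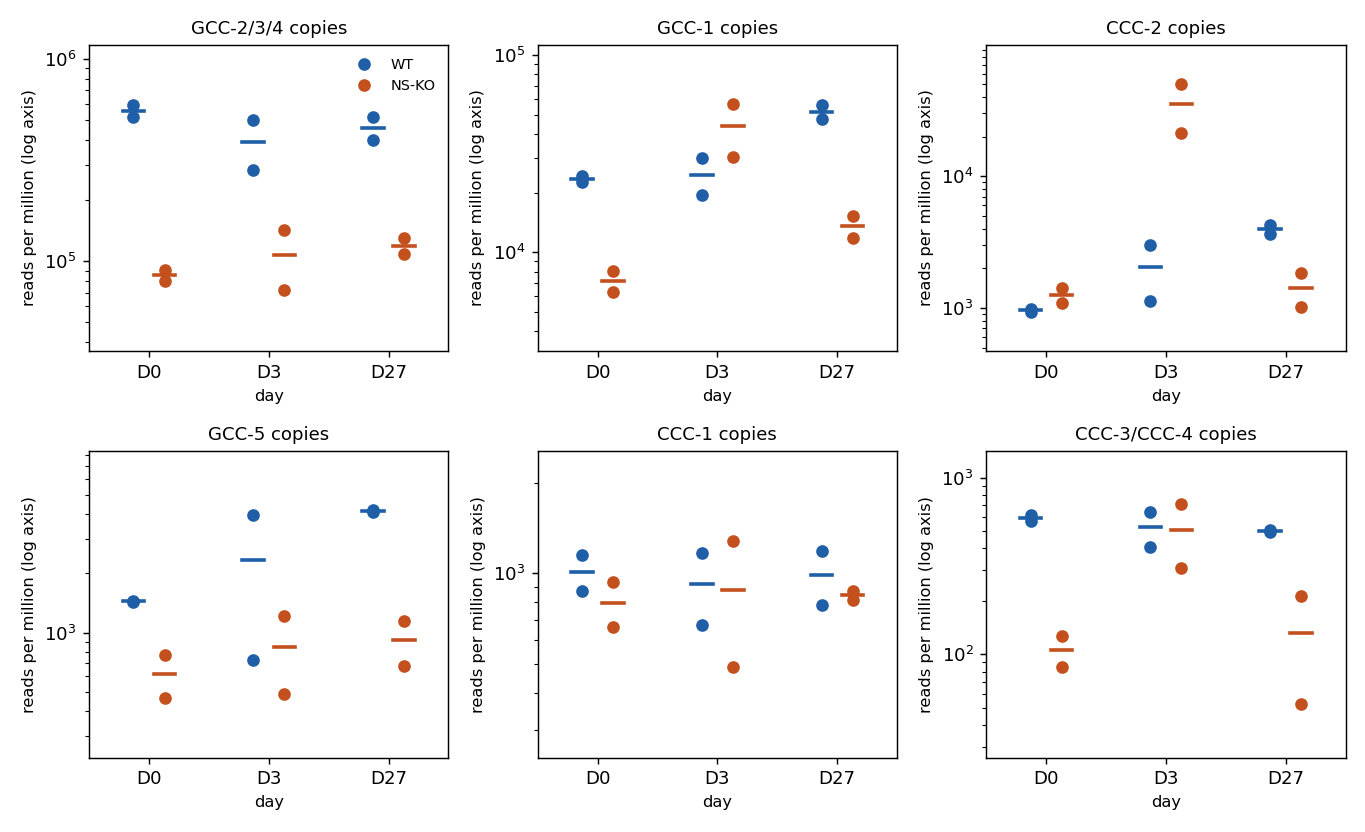
Level in CPM of 5′ fragments by the tRNA copies they match, on log axes whose ranges differ between panels. Points are libraries (2 per group) and short lines group means, WT in blue and NS-KO in orange. GCC-2/3/4 is lower in NS-KO at each day, and CCC-2 reaches 49850 and 21410 in NS-KO at D3.

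CCC-3/CCC-4, with G15A but not G9A, changed by −2.36 over days (SE 0.376, adjusted p = 0.000461), and had 570.7 and 613.1 CPM in WT at D0 against 84.72 and 127.8 in NS-KO. CCC-1, whose sequence differs most, was nearer between genotypes at 674.7 to 1183 CPM in WT and 486.9 to 1278 in NS-KO. Its change over days depended on the scaling: with library size only it was −0.23 and not called (limma, adjusted p = 0.528). It was also not called when any read in 2 libraries was enough to enter the fit (−1.16, adjusted p = 0.0761). In the main fit it was called, with a change of −1.18 over days (SE 0.342, adjusted p = 0.0180). That call was lost without WT D27 replicate 2 (adjusted p = 0.0593), NS-KO D0 replicate 2 (0.0517) or NS-KO D27 replicate 2 (0.0709).

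For GCC-5, GCC-6 and CCC-5 the copy could not be told from a mismatch at the end of another fragment. The commonest GCC-5 length was 28 nt (71.07% of its reads), the commonest GCC-6 length 29 nt (69.52%) and the commonest CCC-5 length 33 nt (68.97%), which are the positions of C28T, G29A and G33C, so that the last base alone marks the copy. These sums changed over days by −2.48, −1.49 and −0.99 (adjusted p = 0.00178, 0.00448 and 0.0475). The CCC-5 call was lost on leaving out any of 10 libraries, with WT D3 replicate 1 and WT D27 replicate 1 the exceptions. GCC-1 and CCC-3/CCC-4 each differ from the main copies by 1 base in most reads and CCC-2 by 2. The 845 reads of CCC-3/CCC-4 were fewer than those of some single inner mismatches, such as G6A (1950 reads) and A22G (1431 reads). Whether the CCC-3/CCC-4 sum holds misread fragments of other copies was not tested, so its changes may not be those of this copy.

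By day, the fit over copies called 3 of the 9 sums lower at D0 (background 4.6%) and 7 lower at D27 (background 6.69%), with 0 higher at either day. At D3 it called 1 higher, CCC-2 (background 12.8%), and 0 lower, or 1 higher and 1 lower with library size only, scaling to the reads outside the glycine fragments or voom weights. From D0 to D3 in NS-KO, 4 were higher (CCC-2, GCC-1, CCC-3/CCC-4 and GCC-6, background 12.3%), and the interaction was called for CCC-2, GCC-1 and CCC-3/CCC-4 (background 7.11%). The GCC-2/3/4 and GCC-1 calls at D0 were lost without WT D0 replicate 1 (adjusted p = 0.0504 for both) or NS-KO D0 replicate 2 (0.0728 and 0.0777). Those at D27 were lost without WT D27 replicate 2 (0.113 and 0.105) or NS-KO D27 replicate 2 (0.0852 and 0.0552), which leave 1 library on that side, assumed to vary like the others. Leaving out single libraries gave 0 to 6 called sums at D0, 1 to 3 at D3, 0 to 8 at D27, 2 to 5 from D0 to D3 in NS-KO and 2 to 8 for the interaction, and 4 were called at D27 when any read in 2 libraries was enough to enter the fit.

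Among single fragments, the change from D0 to D3 in NS-KO was called higher for 76 of 893 and lower for 0 (background 10.4% higher). CCC-2 gave 49 of these from 95 tested, GCC-1 18 from 148 and GCC-2/3/4 3 from 517. The interaction of genotype and D3 was called for 27 (background 4.89%), 15 of CCC-2, 10 of GCC-1, 1 of CCC-3/CCC-4 and 1 of GCC-2/3/4. The shares over all glycine fragments were near or below the background, and the calls lay mainly in the copies named.

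The 31-nt exact CCC-2 fragment (rank 28, 1823 reads) had 4651 and 2670 CPM in NS-KO at D3 and 86.94 to 600.2 CPM in the other libraries. It was 3.56 higher in NS-KO than in WT at D3 (SE 0.728, adjusted p = 0.00703). The rank 25 fragment, with T as its last base, had 5807 and 2969 CPM there and 86.94 to 657.7 CPM elsewhere, and was 3.81 higher (SE 0.704, adjusted p = 0.00399). Unlike the CCC-2 sum, these single-fragment calls were lost without WT D3 replicate 1 (adjusted p = 0.173 and 0.102) or NS-KO D3 replicate 1 (0.102 and 0.0592), and that of rank 28 also without NS-KO D3 replicate 2 (0.0507).

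In WT livers, injury moved few of these fragments past the test. From D0 to D3 the fit called 0 of 893 glycine fragments, with 8 higher and 74 lower at an unadjusted p under 0.05, and voom weights also called 0. From D0 to D27 it called 0, with 149 higher and 9 lower at an unadjusted p under 0.05, and voom weights called 30. None of the 11 sums by subtype and none of the 9 copy sums was called in WT at either day by limma, or by voom weights. At an unadjusted p under 0.05 there were 0 sums by subtype and 1 copy sum at D3, and 1 and 3 at D27. With library size only, 1 sum by subtype and 3 copy sums were called at D27, and leaving out single libraries gave at most 1 copy sum for D3 and 3 for D27. In NS-KO, D27 did not differ from D0 in any of the 893 fragments by limma (26 higher and 9 lower at an unadjusted p under 0.05, and 1 called with voom weights).

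Fragment length centred on 31 nt, the first base of the anticodon loop, with 63.53% of the reads, and lengths of 30 to 32 nt held 92.5%. In WT the 31-nt share was 81.46% and 77.49% at D0, then 67.19% and 57.14% at D3 and finally 49.84% and 54.97% at D27. In NS-KO it was 62.11% and 50.95% at D0, then 48.49% and 56.08% at D3 and finally 53.17% and 44.73% at D27. At D0 and D3 the NS-KO libraries were below the WT libraries, and at D27 the groups overlapped. Averaged over days the difference was −12.09 points (exact permutation p = 0.02778, adjusted p = 0.05556, not passed).

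**Figure D3:**
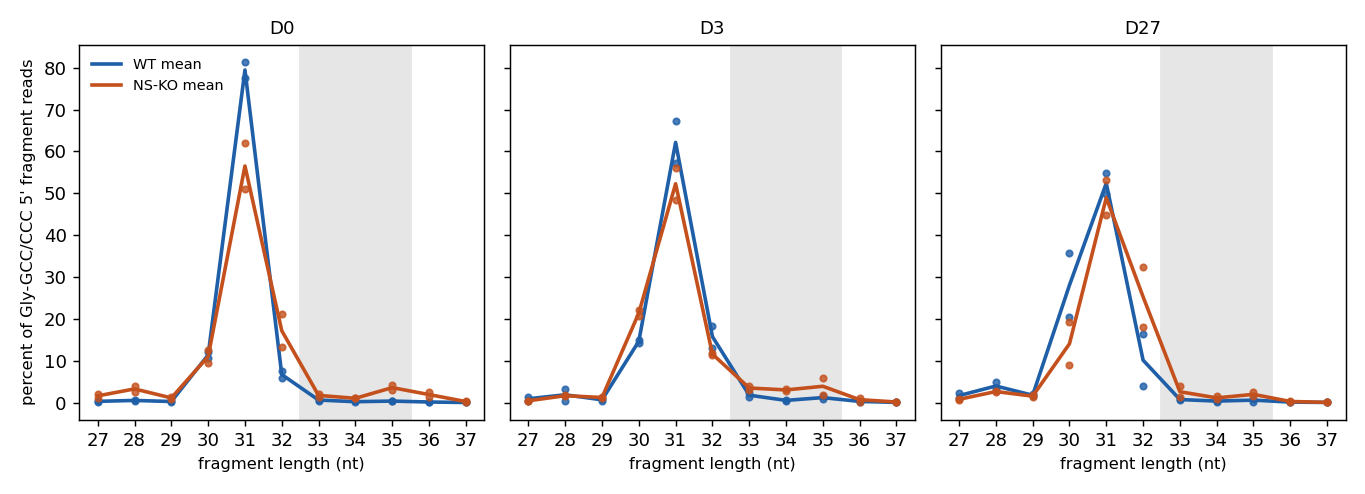
Percent of Gly-GCC and Gly-CCC 5′ fragment reads at each length from 27 to 37 nt, by day. Lines are group means and points the 2 libraries of each group, WT in blue and NS-KO in orange, and the grey band marks lengths that end within the anticodon. The peak at 31 nt is highest in WT at D0, at 81.46% and 77.49%.

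Longer fragments, which end in or beyond the anticodon, took a greater share in NS-KO. Fragments of 33 nt or more made up 1.12% and 1.53% of the glycine reads in WT at D0, then 3.78% and 3.82% at D3 and finally 1.11% and 2.499% at D27. In NS-KO they made up 7.01% and 10.37% at D0, then 14.51% and 8.03% at D3 and finally 4.02% and 8.18% at D27. The lowest NS-KO library was above the highest WT library, and the difference averaged 6.38 points (exact permutation p = 0.009259, adjusted p = 0.02381, a measure added after the lengths had been seen). Of the CCC-2 reads, 41.34% were of 33 nt or more, against 2.46% for GCC-2/3/4, 0.697% for GCC-1 and 17.75% for CCC-3/CCC-4, whereas CCC-1 had 64.4% and CCC-5, whose first 32 bases are those of Gly-GCC-2-1, 99.31%. These shares pool unlike libraries, as the NS-KO D3 libraries gave 81.44% of the CCC-2 reads and 6.515% of the GCC-2/3/4 reads. In those libraries alone the shares were 44.23% for CCC-2, 6.975% for GCC-2/3/4, 1.194% for GCC-1 and 37.76% for CCC-3/CCC-4. Within GCC-2/3/4 alone the share of long fragments was 4.276 points higher in NS-KO (exact permutation p = 0.009259). The fragments listed under both isodecoders could not be used for this comparison, as their sequences part at position 33. With them left out the difference was 12.59 points and was not called (exact permutation p = 0.09259), over a set from which mainly fragments of up to 32 nt had been removed.

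The mean length was 30.42 to 31.02 nt in WT and 30.95 to 31.27 nt in NS-KO, 0.278 nt longer over days and longer at each day (exact permutation p = 0.009259, adjusted p = 0.02381). Without NS-KO D27 replicate 2 the difference was 0.2242 nt (exact permutation p = 0.07407). The 30-nt share reached 35.76% in WT D27 replicate 1, and the 32-nt share reached 32.40% in NS-KO D27 replicate 2, so the lengths on either side of the peak varied widely between libraries. Neither share passed the exact permutation test between genotypes (p = 0.6389 and 0.1389).

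Short 5′ fragments and those without the first base were rare in both genotypes. Reads of 14 to 24 nt made up 0.0274% to 0.144% of the glycine reads in WT and 0.0829% to 0.388% in NS-KO (difference 0.151 points, exact permutation p = 0.03704, adjusted p = 0.06061). Reads lacking the first base made up 0.0346% to 0.284% in WT and 0.112% to 0.458% in NS-KO (exact permutation p = 0.07407). Neither passed adjustment.

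The variety of sequences was greater in NS-KO. When each library was thinned to 4214 glycine reads, WT libraries held 192.4 and 210.7 distinct glycine fragments at D0, then 258.3 and 275.7 at D3 and finally 283.6 and 273.6 at D27. In NS-KO the numbers were 312.9 and 347.0 at D0, then 356.9 and 338.4 at D3 and finally 346.1 and 390.6 at D27. The genotypes did not overlap, and NS-KO held 99.58 more on average (exact permutation p = 0.009259, adjusted p = 0.02381). The difference was 28.77 when at least 2 reads were asked for after thinning and 18.36 with perfect matches alone (exact permutation p = 0.009259 for both). Perfect matches were thinned to 1977 reads, so that their difference is not on the same scale. Within GCC-2/3/4 alone, thinned to 3757 reads, the difference was 43.64 (exact permutation p = 0.02778).

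**Figure D4:**
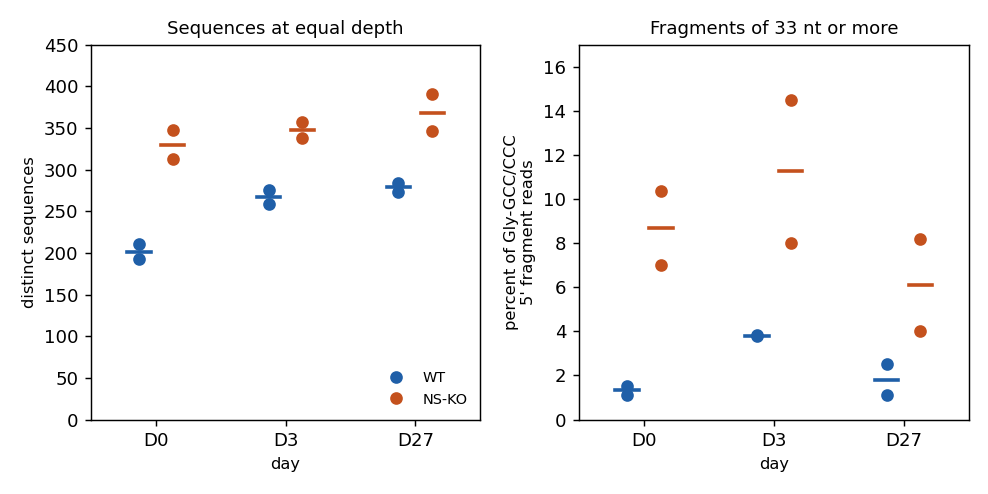
Left, distinct Gly-GCC and Gly-CCC 5′ fragments in each library after thinning to 4214 of their reads (mean of 20 random copies). Right, percent of their reads that are 33 nt or longer. Points are libraries (2 per group) and short lines group means. In both panels every NS-KO library lies above every WT library.

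A feature of these fragments in all libraries was a mismatch at the last base. Of the glycine reads, 51.26% differed from the listed tRNA at their 3′ terminal base, against 50.34% of valine 5′ fragment reads, 31.05% of glutamate 5′ fragment reads and 26.17% of all other tRNA reads. Mismatches within the fragment were less frequent, at 7.71% of glycine reads, and a single substitution, G6T, made up 21.62% of them. Alignment had allowed 1 mismatch, so reads with more were not in the table.

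The last base of the GCC-2/3/4 fragments that start at the first base was tallied by length. Of the 31-nt reads, 35.01% matched exactly, 40.59% had T in place of C, 15.58% had A and 1.88% had G. Of the 30-nt reads, 40.95% matched exactly, 38.58% ended in T and 10.97% in A. At 32 nt, where T is the base of the tRNA, 59.11% matched, 13.40% ended in A and 10.08% in C. The 31-nt rank 1 and rank 3 fragments have the letters of the 30-nt rank 5 fragment followed by T or A, so the deposited length can include an end base that the tRNA does not hold.

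These proportions lay in similar ranges in both genotypes. Among 31-nt GCC-2/3/4 reads the share ending in T was 37.98% to 41.64% in WT libraries and 35.03% to 42.86% in NS-KO libraries, and the exact share 34.23% to 37.72% and 34.00% to 36.75%. Over all glycine reads the last-base mismatch share was 47.44% to 55.58% in WT and 38.78% to 51.47% in NS-KO, a difference of −4.75 points, which did not pass the test (exact permutation p = 0.08333). The share of reads with any mismatch differed by −3.34 points (exact permutation p = 0.1204). With exact matches alone, the glycine share of tRNA reads differed by −32.27 points (exact permutation p = 0.009259).

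**Figure D5:**
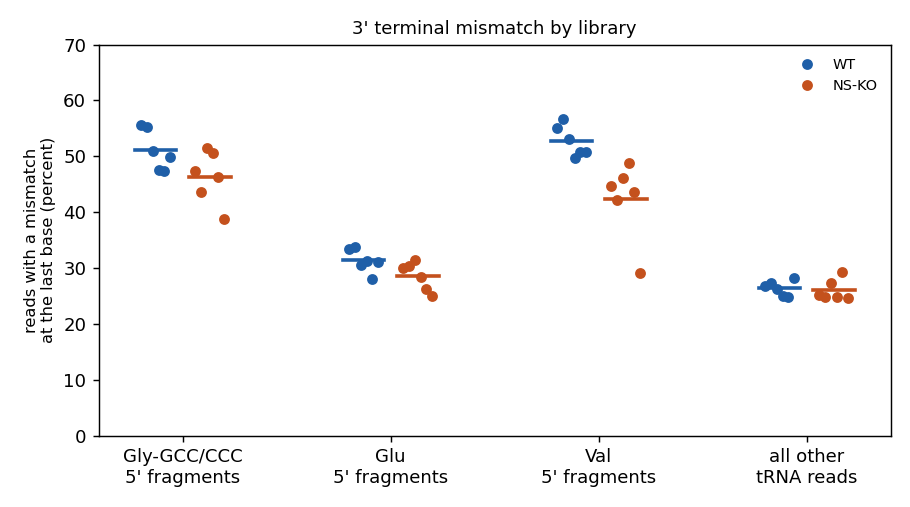
Percent of reads with a mismatch at the last base, for Gly-GCC and Gly-CCC 5′ fragments, for glutamate and valine 5′ fragments and for all other tRNA reads. Points are the 6 libraries of each genotype and short lines their means, WT in blue and NS-KO in orange. The glycine libraries lie between 38.78% and 55.58%.

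With the fragments listed under both isodecoders left out, the remaining Gly-GCC and Gly-CCC fragments, mainly GCC-1 and CCC-2, differed in share by −0.66 points between genotypes (exact permutation p = 0.7778), and their log2 ratio to glutamate 5′ fragments was 0.13 higher in NS-KO (exact permutation p = 0.7315). In the fragments listed under both isodecoders the difference in share was −36.07 points (exact permutation p = 0.009259).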

How the data were processed

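Small RNA of 14 to 40 nt from 12 mouse livers was sequenced after deacylation, removal of cyclic phosphate, phosphorylation of 5′ ends and demethylation, per the labels. The authors trimmed reads with cutadapt, checked them with FastQC and aligned them with Bowtie to mature and then precursor tRNAs, allowing 1 mismatch; versions are not given in the sources used here. The deposited table gives each read sequence, the tRNAs it was listed under and its read counts by library. The deposited values are whole-number counts, set out among lines of text (1.44% as many as data lines) and therefore handled as a table of another unit, to which no count model was applied. In each library the column equalled that library's own deposited file for every sequence.

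Each sequence was counted once. The glycine fragments and the lists compared were chosen with earlier results of these data known. Fragments, sums by the authors' subtype, isodecoder set and 5′ start, and sums by copy set were fitted with limma 3.58.1 in R 4.3.3 (log2 CPM, TMM scaling, prior count 2, trend, 1 mean per group, 10 contrasts), with Benjamini-Hochberg adjustment over all features. Fragments entered at 20 CPM in at least 1 library, a threshold of the methods, and sums with at least 10 reads in all and the CPM worth 10 reads at the median depth in at least 2 libraries. The fits were also run on simulated counts in which features drawn at random were raised or lowered in NS-KO. This setting did not include a fall of a large block of reads, so it does not test the scaling for that case. Measures within libraries were tested by exact two-sided permutation of genotype within days, adjusted over 18 measures, of which 7 were added after the data had been seen, as were the sums by copy set. Log2 ratios used a pseudocount of 0.5.

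Named fragments were the 10 with the most reads, the leading one of each subtype, and the leading 2 under each isodecoder alone; named sums had at least 1000 reads, and copy sums were all named. Replicates of the same number deviated together by −0.386 to 0.496 over 15 pairs of groups (2 above 0.1), so they were taken to share only a number. Totals of 46937 to 275568 reads per library limit the rare fragments most. Alternatives covered scaling, weights, filters, prior count, the replicate block, perfect matches and each library left out.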

Additional observations from a re-analysis of the deposited data

Results flagged for a closer look

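The change from D0 to D3 differed between NS-KO and WT for some glycine 5′ fragments, by the interaction in limma (adjusted p under 0.05), with both NS-KO libraries at D3 above both at D0 for each item named here. It was called for 27 single fragments. Among the fragments named, the log2 difference between the changes was 4.94 for the 31-nt CCC-2 fragment of rank 28 and 5.57 for that of rank 25, and 4.39 and 4.07 for the 31-nt GCC-1 fragments of ranks 7 and 8. These calls were lost on leaving out any of 8 libraries for rank 28, 4 for rank 25, 6 for rank 7 and 8 for rank 8. Among sums by subtype it was 6.02 for tRF-5c of Gly-CCC alone, 5.37 for tiRNA-5 of Gly-CCC alone and 3.72 for tRF-5c of Gly-GCC alone, of which the first was kept whichever library was left out. Among sums by copy it was 5.28 for CCC-2, 4.03 for GCC-1 and 3.61 for CCC-3/CCC-4, the last lost on leaving out any of 6 libraries (adjusted p up to 0.103). Each group had 2 libraries, so no library could be tested as an outlier within its group.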

How the results depend on the processing

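Over days, the count of fragments called, 248, was within 1.5 times under every alternative for that comparison other than voom weights (400), perfect matches alone (19, with 133 tested) and single libraries left out (142 to 296). The share of tRNA reads kept its call with the replicate block (−36.73 points, exact permutation p = 0.03125, the smallest possible) and with each library left out, while reads outside tRF-5c alone, for fragments and total alike, gave −2.623 points (p = 0.07407). The edgeR test was not run, as the table was not accepted as a table of counts. No alternative here was tested for its cause.

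Counts of fragments called at D0 (69) were 17 with library size only, 196 with voom weights, 0 with prior count 0.5, 136 with the stricter filter, 3 with the replicate block, 0 with perfect matches and 0 to 127 without single libraries. At D3 (59) they were 141 with voom weights, 120 with any read in 2 libraries, 16 with perfect matches and 31 to 67 without single libraries. At D27 (44) they were 14 with library size only, 77 with median of ratios, 260 with voom weights, 134 with the stricter filter, 98 with any read, 0 with the block, 2 with perfect matches and 0 to 120 without single libraries. In WT, any read gave 10 at D3, and at D27 47, with voom weights 30 and single libraries left out 0 to 6. In NS-KO from D0 to D3 (76) there were 42 with scaling to reads outside the glycine fragments, 133 with voom weights, 31 with the stricter filter, 143 with any read, 19 with perfect matches and 26 to 77 without single libraries, and from D0 to D27 1 with voom weights and 0 to 37. The interaction at D3 (27) was called for 11 with library size only, 12 with reads outside the glycine fragments, 90 with voom weights, 91 with any read, 6 with perfect matches and 0 to 58, and at D27 for 1 with voom weights, 29 with any read and 0 to 35.

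Counts of sums by subtype were 2 at D0 with any read, 8 at D3 with reads outside the glycine fragments, and with library size only 1 at D27 in WT and 5 for the interaction at D3. Without single libraries they were 0 to 8 at D0, 2 to 5 at D3, 0 to 6 at D27, 2 to 5 from D0 to D3 in NS-KO and 1 to 4 for the interaction at D3. Library size only moved the median of all sums over days from 0.14 to 0.90.

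Changes over days that reversed were not called by the primary test. With library size only, rank 28 was 0.54, rank 25 0.27, the tiRNA-5 Gly-CCC sum 0.82 and the sum shared by other copies 0.18. Perfect matches gave −0.068 for rank 416 and 0.23 for tiRNA-5 Gly-CCC, which was 0.035 with reads outside the glycine fragments. Without single libraries these ranged from −0.25 to 0.20 for rank 416, −0.45 to 0.38 for tiRNA-5 Gly-CCC and −0.39 to 0.44 for CCC-2.

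With the replicate block, 4 measures lost an unadjusted exact permutation p under 0.05: the 31-nt share (−12.09, p = 0.09375), the short share (0.1514, p = 0.09375), the log2 ratio to 3′ fragments (−2.141, p = 0.0625) and that of GCC-1 to GCC-2/3/4 (1.21, p = 0.09375). With fragments listed under both isodecoders left out, the values were −0.6591 for the share of tRNA reads, −12.02 for the 31-nt share, 0.5223 for mean length, 12.59 for the share of 33 nt or more, 26.69 for distinct sequences, −0.1198 for the ratio to valine and −0.7754 to 3′ fragments, none with p under 0.05, and 0.6852 for reads without the first base (exact permutation p = 0.0463). The ratios to glutamate (0.1341) and Gly-TCC (1.13) reversed. With these kept alone the 31-nt share was −8.912 and the short share 0.06369, which was 0.05619 in GCC-2/3/4 alone. Mean length was 0.09489 there, a set that by its choice holds few fragments beyond 32 nt, so that the value says little of the difference in length. Without single libraries the 31-nt share was −13.95 to −10.23, mean length 0.2037 to 0.3523, short share 0.1244 to 0.1783, reads without the first base 0.1307 to 0.2124, the ratio to Gly-TCC −0.6366 to 0.1646, the ratio to 3′ fragments −2.449 to −1.833 and the 30-nt share −5.111 to 0.0219.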
